A study of Mus musculus with 16 samples.

Results

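The genes described here are 50 genes of S phase and mitosis, a listed set that was matched by symbol to a table of 21936 mouse genes, in which all 50 were found. They were measured by RNA sequencing of 16 osteoclast cultures, 4 in each of 4 groups. The cultures were seeded with CD11b-positive cells from the bone marrow of C57BL/6J mouse lines. FLT3 ITD Ptprc KO cultures carried 2 changes. An internal tandem duplication was knocked into Flt3, which makes this receptor tyrosine kinase constitutively active, and Ptprc, which encodes the tyrosine phosphatase CD45 of blood cells, was knocked out. FLT3 ITD cultures carried the knock-in alone, Ptprc KO cultures the knockout alone, and WT cultures neither. All groups were kept for 3 days in M-CSF at 50 ng/ml before RANKL was added at 20 ng/ml, and RNA was taken when mature osteoclasts first appeared, between day 3 and day 5. The labels give neither the day of each culture, nor the age of the mice, nor whether cultures of a group came from separate animals. The p-values therefore measure only the spread between these cultures, which may be technical. The design asks whether the cell cycle genes differ with either change and whether the effect of CD45 loss differs in FLT3 ITD cells.

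A cell that leaves G1 phase turns on, through E2F transcription factors, the genes that load and fire replication origins and supply nucleotides. Later, in G2 phase and mitosis, a second wave of genes for the spindle, the kinetochore and cytokinesis is switched on from promoters that hold a CHR element, short for cell cycle genes homology region, often beside CCAAT boxes. M-CSF drives the division of osteoclast precursors, and these stop dividing before RANKL makes them fuse into multinucleated osteoclasts. In RNA from a whole culture, fewer dividing cells and less of these transcripts per cell cannot be told apart.

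Total counts ranged from 24211724 to 35773313 per library, 12093 genes had enough counts to be tested, and all 50 genes were among them, the least with 64 counts in its lowest library. Ptprc, the targeted gene, had 54.1 to 86.7 CPM (counts divided by the scaled library total) in FLT3 ITD Ptprc KO cultures and 30.8 to 45.8 CPM in Ptprc KO cultures, against 230 to 543 CPM in FLT3 ITD and 412 to 472 CPM in WT cultures. Flt3 transcripts were scarce at harvest, with 0.03 to 0.39 CPM in FLT3 ITD Ptprc KO cultures. The 6 progenitor markers, Flt3 among them, summed to at most 10 CPM in any library. FLT3 ITD replicates 1 and 3 stood unusually close. Their counts differed with a chi-square of 2.77 per gene over all genes and 2.40 per gene over the 50, above the value of about 1 that sampling alone gives, whereas the next closest pair of one group had 13. They were kept as 2 libraries, as the labels give them, and summed in an alternative. A chi-square above sampling noise does not show separate cultures, so the 4 FLT3 ITD libraries may hold only 3 replicates. The 10 osteoclast markers were all detected in every group, with summed levels of 8453 to 46289 CPM in FLT3 ITD Ptprc KO, 15879 to 55487 CPM in FLT3 ITD, 24873 to 64442 CPM in Ptprc KO and 29343 to 37931 CPM in WT cultures. T, B and NK cell markers summed to at most 1.43 CPM and the 4 erythroid markers measured to at most 1.35 CPM in any library.

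The promoters of the 2 waves differ in sequence. The 6 shown are examples, not those of the genes with the largest fold changes. They are Top2a, Bub1 and Cdc20 of mitosis, and Mcm3, Mcm5 and Mcm6 of the replicative helicase. Each is 300 bases long, from 250 bases before to 50 bases after the RefSeq start, read 5′ to 3′ on the strand of the gene in build GRCm38.p6. They lie at chr11:99024140-99024439 (minus strand) for Top2a, chr2:127831810-127832109 (minus strand) for Bub1, chr4:118437294-118437593 (minus strand) for Cdc20, chr1:20820263-20820562 (minus strand) for Mcm3, chr8:75109259-75109558 (plus strand) for Mcm5 and chr1:128359656-128359955 (minus strand) for Mcm6. Capitals mark matches to 3 motifs on either strand, and overlapping matches run together. The CHR element was searched as TTTGAA or TTCGAA. The NF-Y box was searched as CCAAT. The E2F motif was searched as TTGGCGC or TTCGCGC or TTCCCGC or TTGCCGC.
Top2a: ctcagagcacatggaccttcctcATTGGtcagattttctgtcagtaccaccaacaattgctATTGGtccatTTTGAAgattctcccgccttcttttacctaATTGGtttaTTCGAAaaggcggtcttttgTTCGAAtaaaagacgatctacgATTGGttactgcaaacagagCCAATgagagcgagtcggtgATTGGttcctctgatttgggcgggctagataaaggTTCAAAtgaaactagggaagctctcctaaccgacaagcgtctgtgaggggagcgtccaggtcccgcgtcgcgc
Bub1: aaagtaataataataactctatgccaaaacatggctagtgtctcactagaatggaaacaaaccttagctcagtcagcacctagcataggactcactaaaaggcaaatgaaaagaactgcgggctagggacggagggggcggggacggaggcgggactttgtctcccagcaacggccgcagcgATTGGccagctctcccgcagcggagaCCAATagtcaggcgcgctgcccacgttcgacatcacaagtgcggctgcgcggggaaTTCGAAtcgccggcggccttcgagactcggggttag
Cdc20: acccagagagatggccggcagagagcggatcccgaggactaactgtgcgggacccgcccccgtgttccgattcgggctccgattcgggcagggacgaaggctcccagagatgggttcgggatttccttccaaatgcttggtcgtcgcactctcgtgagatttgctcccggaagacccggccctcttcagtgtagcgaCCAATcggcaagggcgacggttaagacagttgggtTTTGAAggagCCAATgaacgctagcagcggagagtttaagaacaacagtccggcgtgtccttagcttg
Mcm3: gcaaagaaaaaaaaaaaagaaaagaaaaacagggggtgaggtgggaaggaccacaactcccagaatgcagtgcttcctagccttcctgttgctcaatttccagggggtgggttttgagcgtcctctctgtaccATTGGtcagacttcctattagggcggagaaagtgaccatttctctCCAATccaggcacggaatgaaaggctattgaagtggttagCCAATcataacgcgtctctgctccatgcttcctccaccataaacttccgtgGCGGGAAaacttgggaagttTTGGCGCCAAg
Mcm5: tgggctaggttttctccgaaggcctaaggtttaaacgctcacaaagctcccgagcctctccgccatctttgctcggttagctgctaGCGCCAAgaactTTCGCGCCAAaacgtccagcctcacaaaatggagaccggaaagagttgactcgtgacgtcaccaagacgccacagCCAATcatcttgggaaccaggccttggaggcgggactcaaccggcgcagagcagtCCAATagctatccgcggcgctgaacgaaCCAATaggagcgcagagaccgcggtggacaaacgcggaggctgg
Mcm6: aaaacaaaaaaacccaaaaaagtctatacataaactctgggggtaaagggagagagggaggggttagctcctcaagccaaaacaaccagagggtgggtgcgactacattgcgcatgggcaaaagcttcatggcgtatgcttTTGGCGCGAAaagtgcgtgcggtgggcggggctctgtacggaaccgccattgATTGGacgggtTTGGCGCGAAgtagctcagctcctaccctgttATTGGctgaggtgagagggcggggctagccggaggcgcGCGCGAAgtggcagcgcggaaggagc

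In these windows the Top2a promoter held 4 CHR elements and 6 CCAAT boxes, Bub1 and Cdc20 held 1 CHR element and 2 CCAAT boxes each, and none of them held an E2F motif. Mcm3 and Mcm5 held 3 E2F matches each and Mcm6 held 5, none with a CHR element. Overlapping E2F matches on opposite strands were each counted, so these are not all separate sites. Such pairs began at -109 and -106 and at -46 and -43 from the start in Mcm6. In Mcm3 a pair began at 40 and 43, and in Mcm5 at -152 and -149. RefSeq promoters were found for 42 of the 50 genes, 45 promoters in all. A CHR element was present in 18 of 22 promoters of mitosis genes (81.8%) and in 3 of 15 promoters of replication genes (20.0%), against 19.2% of all 32851 promoters. CCAAT boxes, which are bound by the factor NF-Y, were in 81.8% of the mitosis promoters, in 66.7% of the replication promoters and in 37.4% of all promoters. An E2F motif was in 9 of the 15 replication promoters (60.0%) and in 13.6% of the mitosis promoters, against 9.57% of all. A match describes these letters in these windows. The Mcm2 window held 1 CHR element and no E2F motif, and the E2f1 and Birc5 windows, for example, held none of the 3 motifs.

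Levels of the replication genes ranged widely. Per length, in the TPM that the authors deposited, Pcna was the highest of the 50 with a mean of 242 TPM over the 16 libraries, followed by Mcm6 with 148 TPM, and Cenpf was the lowest with 11.4 TPM, near Tyms with 12 TPM, Cdc6 with 12.2 TPM and Ung with 12.3 TPM. Values by library are given below in CPM, in the order of replicates 1 to 4, and are compared between cultures and not between genes.

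Origin licensing loads the MCM helicase onto DNA in G1 phase. Mcm2, a helicase subunit, had 134, 76.4, 62.7 and 133 CPM in FLT3 ITD Ptprc KO and 62.4, 52.9, 63.2 and 38.4 CPM in FLT3 ITD cultures. It had 94.2, 37.3, 42.2 and 98.8 CPM in Ptprc KO and 59.9, 63.0, 79.0 and 73.5 CPM in WT cultures. FLT3 ITD replicate 4 and Ptprc KO replicates 2 and 3 were below all other cultures for Mcm2. Mcm5, another subunit, had 253, 91.3, 105 and 242 CPM in FLT3 ITD Ptprc KO and 101, 98.0, 102 and 44.0 CPM in FLT3 ITD cultures. It had 180, 55.6, 70.5 and 122 CPM in Ptprc KO and 114, 119, 104 and 121 CPM in WT cultures. In both genes FLT3 ITD Ptprc KO replicates 1 and 4 were the highest of all 16 cultures, while replicates 2 and 3 of that genotype lay among the other groups for Mcm5. Every FLT3 ITD culture was below every WT culture for Mcm5, as for 3.2% of all genes. Mcm3, also a subunit, had 181, 121, 85.5 and 182 CPM in FLT3 ITD Ptprc KO and 79.5, 66.5, 79.4 and 63.6 CPM in FLT3 ITD cultures. It had 119, 46.9, 49.8 and 133 CPM in Ptprc KO and 83.0, 76.1, 115 and 98.2 CPM in WT cultures. For Mcm3 every FLT3 ITD Ptprc KO culture was above every FLT3 ITD culture, as for 4.95% of all genes. Cdt1, the loading factor that is degraded once S phase begins, overlapped in all groups, with 76.1 to 106 CPM in FLT3 ITD Ptprc KO, 56.2 to 121 CPM in FLT3 ITD, 74.6 to 96.6 CPM in Ptprc KO and 78.2 to 88.9 CPM in WT cultures. A same-strand gene overlaps Cdt1, so some of its reads could be uncertain.

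Nucleotide supply genes followed the same cultures, with exceptions for the clamp and the repair gene. Rrm2, the regulated subunit of ribonucleotide reductase, had 177, 42.7, 85.8 and 208 CPM in FLT3 ITD Ptprc KO and 87.5, 119, 81.7 and 10.2 CPM in FLT3 ITD cultures. It had 105, 39.5, 50.8 and 44.5 CPM in Ptprc KO and 67.2, 82.6, 50.0 and 88.5 CPM in WT cultures. Its FLT3 ITD replicate 4 was the lowest culture of the 16. Pcna, the sliding clamp of DNA polymerases, had 311, 273, 118 and 259 CPM in FLT3 ITD Ptprc KO and 122, 166, 121 and 280 CPM in FLT3 ITD cultures. It had 148, 86.3, 92.2 and 232 CPM in Ptprc KO and 128, 120, 211 and 143 CPM in WT cultures. Here FLT3 ITD replicate 4 was the highest of its group and above every WT culture, the opposite of its place for the other 49 genes, all of which were lowest of the FLT3 ITD group there. Pcna has processed copies (Pcna-ps1 and Pcna-ps2) that could share its reads. Ung, the uracil-DNA glycosylase, had 17.1, 16, 18.3 and 28.8 CPM in FLT3 ITD Ptprc KO and 20.1, 30.2, 22.1 and 9.95 CPM in FLT3 ITD cultures. It had 25.3, 18.6, 22.6 and 22.6 CPM in Ptprc KO and 14.9, 21.1, 18.8 and 18.4 CPM in WT cultures, and all 4 groups overlapped. Ung and Cdt1 were the 2 genes whose highest culture was not FLT3 ITD Ptprc KO replicate 1 or 4.

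Among the cyclins, kinases and transcription factors, those of S-phase entry are given first. E2f1, an activator of S-phase genes, had 75.0, 41.6, 43.3 and 69.1 CPM in FLT3 ITD Ptprc KO and 33.5, 43.9, 36.1 and 29.2 CPM in FLT3 ITD cultures. It had 44.2, 26.0, 27.4 and 41.5 CPM in Ptprc KO and 35.0, 36.9, 37.7 and 46.8 CPM in WT cultures. The 4 genotypes overlapped for E2f1, and only FLT3 ITD Ptprc KO replicates 1 and 4 were above the highest WT culture. Ccne1, cyclin E1, which drives entry into S phase, had 32.1, 13.1, 15.4 and 35.5 CPM in FLT3 ITD Ptprc KO and 13.8, 19.4, 14.4 and 3.54 CPM in FLT3 ITD cultures. It had 17.7, 8.36, 9.07 and 9.57 CPM in Ptprc KO and 15.4, 16.5, 12.1 and 16.5 CPM in WT cultures. For Ccne1 FLT3 ITD replicate 4 was the lowest culture, and FLT3 ITD replicate 2, Ptprc KO replicate 1 and the high pair of FLT3 ITD Ptprc KO were above all WT cultures. Cdk2, its kinase partner, had 73.4, 40.3, 51.0 and 64.4 CPM in FLT3 ITD Ptprc KO and 42.8, 43.0, 40.0 and 28 CPM in FLT3 ITD cultures. It had 48.9, 39.1, 36.5 and 34.1 CPM in Ptprc KO and 40.1, 39.0, 36.5 and 48.2 CPM in WT cultures. In each of these 3 genes FLT3 ITD Ptprc KO replicates 1 and 4 exceeded all 12 cultures of the other genotypes, and replicate 2 of that genotype did not.

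Cdk1, the kinase that starts mitosis, had 194, 36.9, 57.0 and 130 CPM in FLT3 ITD Ptprc KO and 56.0, 93.1, 58.1 and 20.0 CPM in FLT3 ITD cultures. It had 97.9, 35.2, 40.8 and 41.9 CPM in Ptprc KO and 66.0, 64.1, 47.3 and 70.3 CPM in WT cultures. Above every WT culture for Cdk1 stood FLT3 ITD Ptprc KO replicates 1 and 4, Ptprc KO replicate 1 and FLT3 ITD replicate 2. Ccna2, cyclin A2, had 315, 45.0, 83.8 and 195 CPM in FLT3 ITD Ptprc KO and 90.2, 97.5, 89.4 and 12.7 CPM in FLT3 ITD cultures. It had 151, 44.3, 51.9 and 45.1 CPM in Ptprc KO and 104, 93.0, 62.9 and 109 CPM in WT cultures. All genotypes overlapped for Ccna2, and its lowest FLT3 ITD culture was far below every other culture. Ccnb1, cyclin B1, the mitotic partner of Cdk1, had 165, 20.6, 38.1 and 105 CPM in FLT3 ITD Ptprc KO and 47.7, 54.2, 46.6 and 5.87 CPM in FLT3 ITD cultures. It had 86.6, 26.4, 29.0 and 22.3 CPM in Ptprc KO and 59.3, 51.4, 32.0 and 51.0 CPM in WT cultures. In all 3 genes FLT3 ITD Ptprc KO replicates 1 and 4 were above every WT culture, replicate 3 was within the WT range and replicate 2 was below it. The near copy Ccnb1-ps leaves the Ccnb1 counts uncertain.

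The SD of log2 CPM among the cultures of a genotype had a median over the 10 genes for mitotic kinases, checkpoint and kinetochore of 1.25 in FLT3 ITD Ptprc KO, 1.34 in FLT3 ITD, 0.80 in Ptprc KO and 0.36 in WT. Over the 10 licensing genes it was 0.63, 0.51, 0.71 and 0.13 in the same groups. The ranges of the roles overlapped, with 0.71 for the checkpoint kinase Bub1b and 0.86 for Cdc6 in FLT3 ITD cultures, and the difference was not tested. Plk1, the kinase that acts from mitotic entry to cytokinesis, had 150, 18.2, 32.7 and 73.2 CPM in FLT3 ITD Ptprc KO and 33.3, 31.4, 33.4 and 4.50 CPM in FLT3 ITD cultures. It had 67.5, 18.9, 21.7 and 14.8 CPM in Ptprc KO and 47.3, 41.2, 24.0 and 43.7 CPM in WT cultures. Plk1 was above every WT culture in FLT3 ITD Ptprc KO replicates 1 and 4 and Ptprc KO replicate 1. Aurkb, the kinase of the chromosomal passenger complex, had 103, 13.9, 30.3 and 66.0 CPM in FLT3 ITD Ptprc KO and 28.9, 30.8, 28.9 and 4.66 CPM in FLT3 ITD cultures. It had 51.8, 15.1, 17.0 and 16.3 CPM in Ptprc KO and 32.9, 30.3, 21.8 and 37.3 CPM in WT cultures. The same 3 cultures were the highest of the 16 for Aurkb. Bub1, a spindle checkpoint kinase whose promoter is printed above, had 207, 21.2, 62.1 and 147 CPM in FLT3 ITD Ptprc KO and 62.6, 52.0, 57.7 and 5.91 CPM in FLT3 ITD cultures. It had 109, 36.6, 38.3 and 24.8 CPM in Ptprc KO and 71.6, 74.5, 32.0 and 77.4 CPM in WT cultures. FLT3 ITD replicate 4 was far below its 3 sister cultures in all of them, and Ptprc KO replicate 1 far above its own.

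The kinetochore genes behaved alike apart from FLT3 ITD replicate 2. Cenpe, a kinetochore motor, had 217, 36.7, 60.0 and 134 CPM in FLT3 ITD Ptprc KO and 57.8, 27.9, 58.3 and 7.87 CPM in FLT3 ITD cultures. It had 107, 35.7, 37.4 and 32.8 CPM in Ptprc KO and 81.9, 71.3, 52.6 and 70.4 CPM in WT cultures. Each FLT3 ITD culture except replicates 1 and 3 was below the WT range for Cenpe. Cenpf, a large kinetochore protein of G2 phase and mitosis, had 179, 24.4, 43.5 and 108 CPM in FLT3 ITD Ptprc KO and 44.2, 16.7, 42.7 and 5.00 CPM in FLT3 ITD cultures. It had 82.6, 21.7, 21.9 and 19.7 CPM in Ptprc KO and 58.0, 44.0, 30.7 and 48.5 CPM in WT cultures. For both, FLT3 ITD replicate 2 lay well below replicates 1 and 3 of its group. Values of that library trended with gene length. Over the 50 genes its difference in log2 CPM from replicates 1 and 3 ranked against gene length with a Spearman rho of -0.572, close to the -0.577 over all genes tested, as a description across genes that share 1 library. The 10 shortest of the 50 had a median difference of 0.45 (9 positive) and the 10 longest one of -0.64 (8 negative).

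Among the chromosome and spindle genes were the 2 with the highest mean CPM of the set, Mki67 and Top2a. Mki67, the Ki-67 protein that coats mitotic chromosomes and marks cycling cells, had 811, 155, 255 and 550 CPM in FLT3 ITD Ptprc KO and 260, 108, 290 and 22.4 CPM in FLT3 ITD cultures. It had 477, 156, 170 and 144 CPM in Ptprc KO and 343, 307, 196 and 323 CPM in WT cultures. Only FLT3 ITD Ptprc KO replicates 1 and 4 and Ptprc KO replicate 1 exceeded the WT range for Mki67. Top2a, the topoisomerase that untangles sister chromatids, had 801, 115, 250 and 572 CPM in FLT3 ITD Ptprc KO and 232, 139, 229 and 32.3 CPM in FLT3 ITD cultures. It had 436, 119, 140 and 124 CPM in Ptprc KO and 280, 258, 165 and 275 CPM in WT cultures. The FLT3 ITD Ptprc KO range thus spanned both ends of the WT range for each of them.

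Kif11, the motor that separates spindle poles, had 208, 31.9, 63.1 and 130 CPM in FLT3 ITD Ptprc KO and 57.3, 44.4, 57.3 and 8.70 CPM in FLT3 ITD cultures. It had 102, 30.4, 36 and 29.0 CPM in Ptprc KO and 66.9, 63.9, 44.0 and 71.4 CPM in WT cultures. Those 3 cultures were also the only ones above the WT range for Kif11. Cdc20, the activator of the anaphase-promoting complex, had 132, 17.7, 35.4 and 81.4 CPM in FLT3 ITD Ptprc KO and 41.9, 52.2, 41.8 and 6.58 CPM in FLT3 ITD cultures. It had 89.2, 24.2, 26.1 and 19.8 CPM in Ptprc KO and 55.8, 50.3, 29.1 and 46.8 CPM in WT cultures. Both repeat the order seen for Mki67 within the FLT3 ITD Ptprc KO group, with replicate 1 highest and replicate 2 lowest. Cdc20 overlaps Elovl1 on the other strand.

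In the last group, genes of the central spindle and cytokinesis, Prc1, which bundles midzone microtubules, had 244, 42.2, 66.1 and 150 CPM in FLT3 ITD Ptprc KO and 63.3, 42.4, 60.9 and 7.99 CPM in FLT3 ITD cultures. It had 104, 33.5, 37.4 and 34.3 CPM in Ptprc KO and 73.2, 67.0, 48.9 and 79.1 CPM in WT cultures. Prc1 overlapped in all genotypes and was above the WT range in the same 3 cultures. Anln, anillin, the scaffold of the contractile ring, had 301, 38.5, 80.2 and 145 CPM in FLT3 ITD Ptprc KO and 63.6, 35.8, 62.8 and 10.2 CPM in FLT3 ITD cultures. It had 114, 34.5, 33.0 and 30.8 CPM in Ptprc KO and 74.8, 68.0, 48.3 and 83.1 CPM in WT cultures. Both were highest in FLT3 ITD Ptprc KO replicate 1 and lowest in FLT3 ITD replicate 4. The plot of 8 genes by culture shows the same points.

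**Figure D1:**
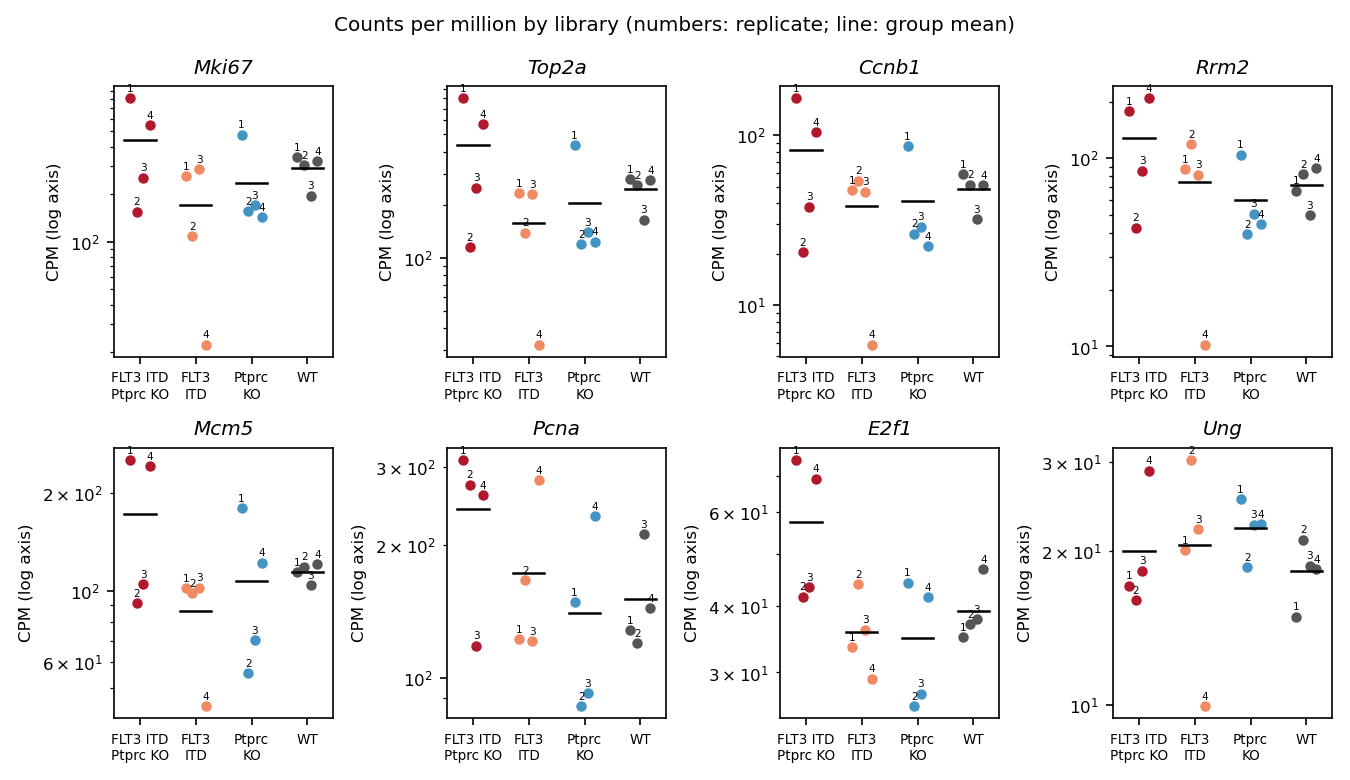
CPM (log axis) of 8 cell cycle genes in each of the 16 cultures; points are cultures with their replicate number, and lines are group means, with FLT3 ITD Ptprc KO at the left and WT at the right. FLT3 ITD replicate 4 sits at the bottom for Mki67 (22.4 CPM), Top2a (32.3 CPM) and Rrm2 (10.2 CPM) but at the top of its group for Pcna (280 CPM).

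The other genes of the set are given by their ranges. Mcm7, a helicase subunit, spanned 60.1 to 166 CPM in FLT3 ITD Ptprc KO, 30.1 to 78.0 CPM in FLT3 ITD, 46.8 to 134 CPM in Ptprc KO and 74.1 to 92.7 CPM in WT cultures. Tk1, the thymidine kinase of S phase, spanned 30.4 to 142 CPM in FLT3 ITD Ptprc KO, 12.5 to 60.8 CPM in FLT3 ITD, 23.1 to 64.6 CPM in Ptprc KO and 38.5 to 53.7 CPM in WT cultures. In both, the FLT3 ITD Ptprc KO range reached below and above the whole WT range. The same held for Foxm1, a transcription factor of the mitotic wave, with 21.2 to 124 CPM in FLT3 ITD Ptprc KO against 27.7 to 46.8 CPM in WT cultures. Ube2c, the ubiquitin-conjugating enzyme of the anaphase-promoting complex, had the highest ratio of highest to lowest culture within a group, 14.9-fold in FLT3 ITD. It spanned 21.8 to 204 CPM in FLT3 ITD Ptprc KO, 6.58 to 98.1 CPM in FLT3 ITD, 22.3 to 95.8 CPM in Ptprc KO and 32.0 to 61.6 CPM in WT cultures. Birc5, survivin of the chromosomal passenger complex, spanned 18.5 to 126 CPM in FLT3 ITD Ptprc KO, 6.29 to 67.0 CPM in FLT3 ITD, 19.0 to 60.8 CPM in Ptprc KO and 24.7 to 43.9 CPM in WT cultures. Both of these short transcripts were higher in FLT3 ITD replicate 2 than in replicates 1 and 3, the reverse of Cenpe and Cenpf. Kif23 and Racgap1, the subunits of centralspindlin, spanned 29.4 to 185 CPM and 33.4 to 237 CPM in FLT3 ITD Ptprc KO, against 35.6 to 62.4 CPM and 47.3 to 88.2 CPM in WT cultures. The remaining genes were Cdc45 and Gins2 of the replicative helicase, Rrm1 and Tyms of nucleotide synthesis, Ccnb2, Ccne2, E2f8 and Mybl2 of the cyclins and factors, Aurka, Bub1b, Mad2l1 and Cenpa of the kinases, checkpoint and kinetochore, and Nusap1, Tpx2, Ect2 and Kif20a of the spindle and cytokinesis. For each of these genes, named by range or only listed, FLT3 ITD replicate 4 was the lowest of the 16 cultures.

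The difference between genotypes was carried by a few cultures. FLT3 ITD Ptprc KO replicate 1 was the highest of the 16 cultures for 38 of the 50 genes and replicate 4 for 10, and each was among the top 2 for 48. Set against the mean of the WT cultures in log2 CPM, the median of the 50 genes was 1.53 in replicate 1 and 1.1 in replicate 4, but -0.08 in replicate 3 and -0.79 in replicate 2. Replicate 2 was the lowest of its group for 44 genes and below all 4 WT cultures for 38. FLT3 ITD replicate 4 had a median of -2.41, was below all WT cultures for 49 genes and was the lowest of the 16 for 44. The other FLT3 ITD cultures had medians of -0.08, 0.00 and -0.06 (replicates 1, 2 and 3). Ptprc KO replicate 1 had a median of 0.67 and was above all WT cultures for 48 genes, whereas replicates 2, 3 and 4 had medians of -0.84, -0.64 and -0.73 and were below all WT cultures for 45, 42 and 36 genes. Within the WT group replicate 3 had the lowest median, -0.42. How often other genes took these places was not counted, so the counts cannot be read as particular to the 50. Counts of FLT3 ITD replicate 4 differed from those of replicates 1, 2 and 3 over all genes too. The chi-square per gene was 644, 625 and 629 over all genes, and 832, 656 and 853 over the 50.

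**Figure D2:**
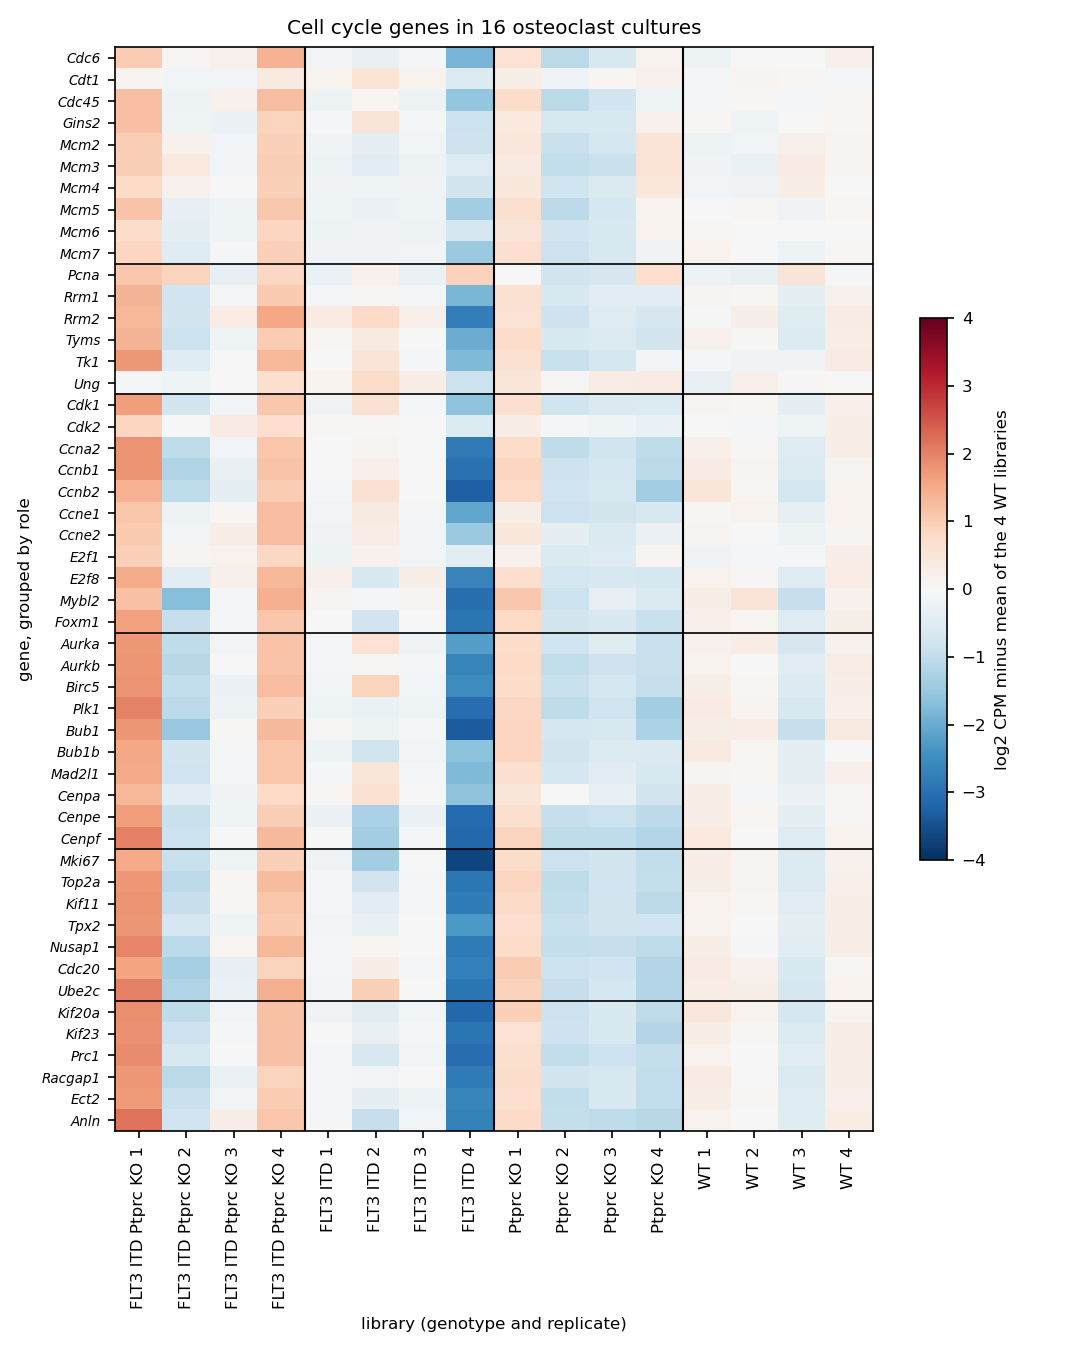
Log2 CPM of the 50 genes (rows, grouped by role with black lines) in the 16 cultures (columns, FLT3 ITD Ptprc KO first and WT last), as the difference from the mean of the 4 WT cultures; red is higher and blue lower than that mean. The columns of FLT3 ITD Ptprc KO replicates 1 and 4 and Ptprc KO replicate 1 are red nearly throughout, and that of FLT3 ITD replicate 4 is blue except for Pcna and darkest among the mitosis genes.

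Spread within a genotype exceeded that of other genes. The standard deviation of log2 CPM among the 4 cultures had a median over the 50 genes of 1.08 in FLT3 ITD Ptprc KO, 1.21 in FLT3 ITD, 0.76 in Ptprc KO and 0.31 in WT, against 0.36, 0.44, 0.30 and 0.19 over all genes tested in the same groups. The highest culture of a group exceeded its lowest by a median of 5.23-fold in FLT3 ITD Ptprc KO, 6.12-fold in FLT3 ITD, 3.14-fold in Ptprc KO and 1.64-fold in WT. The share of the variance of log2 CPM across the 16 cultures that lay between genotype means had a median of 23.7% for the 50 genes. It ran from 1.82% for Cdt1 to 48.1% for E2f1, and its median over all genes tested was 26.0%. In 4 groups of 4 cultures a part of such a share arises without any effect of genotype. It is uncorrected for this and does not measure a genotype effect.

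The 2 waves did not move in step in every culture. The mean difference from WT in log2 CPM was 0.90 for the 10 licensing genes and 1.77 for the 23 mitosis genes in FLT3 ITD Ptprc KO replicate 1, and 0.97 and 1.11 in replicate 4. In FLT3 ITD replicate 4 it was -1.05 for licensing and -2.71 for mitosis. The licensing value exceeded the mitosis value in 8 cultures. The 4 largest differences were 1.67 in FLT3 ITD replicate 4, 1.18 in Ptprc KO replicate 4, 0.86 in FLT3 ITD Ptprc KO replicate 2 and 0.56 in WT replicate 3, a culture of each genotype, and the other 4 were 0.03 to 0.19. In Ptprc KO replicate 4 the mitosis genes lay at -0.99 while the licensing genes lay at 0.19. Ptprc KO replicates 2 and 3, in contrast, were low in both, with differences between the waves of 0.03 and 0.11.

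**Figure D3:**
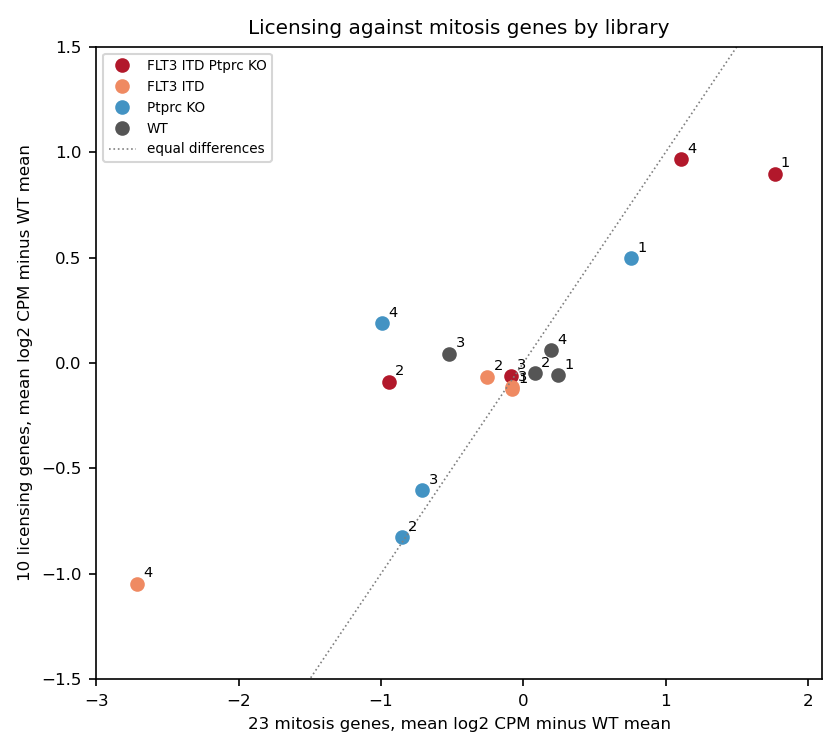
Mean difference from the WT mean in log2 CPM for the 10 licensing genes (vertical axis) against the 23 mitosis genes (horizontal axis); each point is a culture with its replicate number, coloured by genotype, and the dotted line marks equal differences. FLT3 ITD replicate 4 lies at the far left, with -2.71 for mitosis and -1.05 for licensing, and FLT3 ITD Ptprc KO replicates 1 and 4 at the upper right.

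Other measures also varied between these cultures. Ctsk, cathepsin K, the collagen-degrading protease of osteoclasts, had 1904, 1399, 8508 and 1169 CPM in FLT3 ITD Ptprc KO and 12258, 18506, 11778 and 4203 CPM in FLT3 ITD cultures. It had 5960, 16696, 14900 and 6177 CPM in Ptprc KO and 7302, 9366, 7856 and 8103 CPM in WT cultures. FLT3 ITD Ptprc KO replicates 1, 2 and 4 were thus the lowest of the 16 for Ctsk, although replicate 2 was among the low cultures for the cell cycle genes and replicates 1 and 4 were the high ones. The 4 cultures with the largest excess of licensing over mitosis, a choice made after the values were seen, held the highest sum of 6 neutrophil markers in their groups. It was 12 CPM in FLT3 ITD Ptprc KO replicate 2, 105 CPM in FLT3 ITD replicate 4, 179 CPM in Ptprc KO replicate 4 and 87.6 CPM in WT replicate 3. FLT3 ITD Ptprc KO replicate 4, where licensing minus mitosis was -0.14, had a sum of 10.6 CPM, near that of replicate 2. The ranges of that sum were 0.55 to 12 CPM in FLT3 ITD Ptprc KO, 5.70 to 105 CPM in FLT3 ITD, 2.50 to 179 CPM in Ptprc KO and 0.16 to 87.6 CPM in WT cultures, and Ly6g, which defines neutrophils, was at 0 in all FLT3 ITD Ptprc KO and WT cultures and at most 0.11 CPM elsewhere. The sum of 8 macrophage and monocyte markers was also highest within each group in the 4 cultures with the largest excess of licensing, at 6139, 5542, 4845 and 4831 CPM. The sum of 3 endothelial markers, nearly all of it Kdr, was 28.4 CPM in FLT3 ITD Ptprc KO replicate 1, 21.7 CPM in Ptprc KO replicate 1 and 26.2 CPM in WT replicate 1. It was 7.53 CPM, the lowest of its group, in FLT3 ITD Ptprc KO replicate 4, and 2.43 to 6.83 CPM in FLT3 ITD cultures. The part of these markers in the levels of the 50 genes was not tested.

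In FLT3 ITD Ptprc KO against FLT3 ITD cultures, the comparison for CD45 loss in FLT3 ITD cells, 48 of the 50 genes had a positive log2 fold change, with a median of 1.00 against 0.03 over all genes tested. The largest was Cenpf at 1.71 (SE 0.71), with 88.9 ± 70.2 CPM in FLT3 ITD Ptprc KO and 27.1 ± 19.4 CPM in FLT3 ITD cultures (SD, n = 4 each), and the lowest was Cdt1 at -0.05 (SE 0.19). Medians by role were 0.76 for nucleotide supply, 0.86 for licensing, 0.93 for cyclins, CDKs and transcription factors, 1.24 for mitotic kinases and kinetochore, 1.33 for chromosomes and spindle, and 1.39 for cytokinesis. None of the 50 passed edgeR's quasi-likelihood test after Benjamini-Hochberg adjustment at 0.05, a rule that called 0.00827% of all genes. The lowest adjusted p in edgeR was 0.122, for E2f1, whose log2 fold change was 0.68 (SE 0.23), with 57.2 ± 17.3 CPM in FLT3 ITD Ptprc KO and 35.7 ± 6.16 CPM in FLT3 ITD cultures (SD, n = 4 each). At an unadjusted p under 0.05, 21 of the 50 were higher, against 11.9% of all genes, and 0 were lower, against 13.7% of all genes. That count rested on single cultures. It was 4 without FLT3 ITD Ptprc KO replicate 4 (8.28% of all genes), 5 without replicate 1 and 39 without replicate 2 (11.3%). Without FLT3 ITD replicate 4 it was 11, in a fit that called 6.73% of all genes higher after adjustment. This 11 cannot be set against the 11.9% of the full fit. Where a left-out count here or below has no share of all genes beside it, it cannot be read as particular to the 50.

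Every FLT3 ITD Ptprc KO culture was above every FLT3 ITD culture for 3 of the 50 genes, a share near the 4.95% of all genes. They were Cdc6, Mcm3 and Mcm4, named here after their values were seen. Cdc6, which recruits the helicase to origins, had 34.1, 18, 19.1 and 44.7 CPM in FLT3 ITD Ptprc KO and 15.9, 13.9, 16.3 and 4.62 CPM in FLT3 ITD cultures, which gave 1.19 as log2 fold change (SE 0.42, adjusted p = 0.13 in edgeR). Mcm4 had 143, 92.9, 82.7 and 159 CPM in FLT3 ITD Ptprc KO and 73.5, 73.0, 74.5 and 48.8 CPM in FLT3 ITD cultures, a log2 fold change of 0.82 (SE 0.29). Mcm3, shown by culture above, had a log2 fold change of 0.98 (SE 0.33). Without FLT3 ITD Ptprc KO replicate 3, which lies near WT, edgeR called 2 of the 50, Mcm3 (adjusted p = 0.0426) and E2f1 (adjusted p = 0.0468), against 3.22% of all genes called higher. Without FLT3 ITD replicate 4 edgeR called 0 of the 50, although it then called 6.73% of all genes higher, and the median of the 50 was 0.76. Without FLT3 ITD Ptprc KO replicate 1 the median was 0.68.

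In FLT3 ITD Ptprc KO against Ptprc KO cultures, which differ in the receptor, 48 genes were positive with a median of 0.94, against 0.04 over all genes. The largest was Anln at 1.41 (SE 0.64), with 141 ± 115 CPM in FLT3 ITD Ptprc KO and 53.0 ± 40.6 CPM in Ptprc KO cultures (SD, n = 4 each), and the lowest was Ung at -0.15 (SE 0.27). No gene of the 50 passed the adjusted test in edgeR, which called 0.091% of all genes, and the lowest adjusted p was 0.208, for E2f1 at 0.72 (SE 0.23). At an unadjusted p under 0.05, 6 were higher, against 8.75% of all genes, and 0 lower, against 9.07%. The 6 became 44 without Ptprc KO replicate 1 (9.78% of all genes), 32 without FLT3 ITD Ptprc KO replicate 2, and 18 without its replicate 3 or without FLT3 ITD replicate 4. They became 1 without FLT3 ITD Ptprc KO replicate 1 (4.71%) or 4, and 2 without Ptprc KO replicate 2 or 3. Those of these counts that have no share of all genes beside them cannot be read as particular to the 50. For 0 of the 50 did the 2 groups' ranges separate, against 3.48% of all genes with every FLT3 ITD Ptprc KO culture higher. The median was 0.46 without FLT3 ITD Ptprc KO replicate 1 and 1.46 without Ptprc KO replicate 1.

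Against WT, with both changes present, all 50 genes were positive, with a median of 0.71 against 0.05 over all genes. Anln was the largest at 1.04 (SE 0.63) and Cdt1 the lowest at 0.08 (SE 0.19), while Cdk2 had the lowest adjusted p in edgeR, 0.59, with a log2 fold change of 0.48 (SE 0.19) and 57.3 ± 14.6 CPM in FLT3 ITD Ptprc KO and 40.9 ± 5.08 CPM in WT cultures (SD, n = 4 each). The adjusted test in edgeR passed 0 of the 50 and 0.108% of all genes. At an unadjusted p under 0.05 it gave 2 of the 50 higher, Cdk2 and E2f1, against 4.2% of all genes, and 0 lower, against 3.69%. Without FLT3 ITD Ptprc KO replicate 2 it gave 8 (4.9% of all genes), without replicate 3 it gave 7 and without FLT3 ITD replicate 4 it gave 4. Without FLT3 ITD Ptprc KO replicate 1 or 4, or WT replicate 1, 2 or 3, it gave 0. Left-out counts given here with no share of all genes cannot be read as particular to the 50. Ranges separated for 0 of the 50, against 2.94% of all genes with every FLT3 ITD Ptprc KO culture higher. Without FLT3 ITD Ptprc KO replicate 1 the median was 0.26.

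With FLT3 ITD alone most fitted values had the opposite sign. In FLT3 ITD against WT cultures 46 genes were negative, with a median of -0.35 against 0.04 over all genes. Cenpe was the lowest at -0.86 (SE 0.61, adjusted p = 0.655 in edgeR), with 38 ± 24.6 CPM in FLT3 ITD and 69.0 ± 12.2 CPM in WT cultures (SD, n = 4 each), and Pcna the highest at 0.19 (SE 0.37). By edgeR 0 of the 50 passed the adjusted test, against 0.0413% of all genes, and 0 had an unadjusted p under 0.05 in either direction, against 5.23% of all genes higher and 3.23% lower. Every FLT3 ITD culture was below every WT culture for 2 of the 50 genes, a share near the 3.2% of all genes. They were Mcm5 and Mcm6, the second named after its values were seen. Mcm6 had 176, 183, 175 and 127 CPM in FLT3 ITD and 206, 198, 204 and 197 CPM in WT cultures, a log2 fold change of -0.29 (SE 0.30), and Mcm5 one of -0.40 (SE 0.40). Without FLT3 ITD replicate 4 the median of the 50 was -0.07, with 32 negative, and Pcna was at -0.14.

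The last pair of groups asks what loss of CD45 does in cells with unmutated Flt3. In Ptprc KO against WT cultures 48 genes were negative, with a median of -0.21 against 0.02 over all genes. Ccne1 was the lowest at -0.44 (SE 0.43), with 11.2 ± 4.35 CPM in Ptprc KO and 15.1 ± 2.12 CPM in WT cultures (SD, n = 4 each), and Ung the highest at 0.28 (SE 0.27). By edgeR 0 of the 50 passed the adjusted test, against 0.0331% of all genes, and 0 had an unadjusted p under 0.05, against 0.339% of all genes higher and 0.504% lower. The median rested on single cultures: it was -0.74 without Ptprc KO replicate 1 and -0.36 without WT replicate 3. It was -0.07 without Ptprc KO replicate 2, with 15 genes positive, -0.10 without replicate 3 and -0.12 without replicate 4.

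The interaction, the effect of CD45 loss in FLT3 ITD cells minus its effect in cells with unmutated Flt3, asks whether the 2 effects differ. It was positive for 48 genes, with a median log2 difference of 1.22 against 0.02 over all genes. Anln was the highest at 2.08 (SE 0.90) and Ung the lowest at -0.32 (SE 0.38). The adjusted test in edgeR passed 0 of the 50 and 0.00827% of all genes, with the lowest adjusted p at 0.263 for E2f1 (0.85, SE 0.32). At an unadjusted p under 0.05, 9 of the 50 were higher, against 7.4% of all genes, and 0 lower, against 10.1%. There were 35 without Ptprc KO replicate 1 (9.6% of all genes), 30 without FLT3 ITD Ptprc KO replicate 2 and 18 without its replicate 3. There were 0 without FLT3 ITD Ptprc KO replicate 1 (4.71%), and 1 or 2 without its replicate 4, FLT3 ITD replicate 4, Ptprc KO replicate 2 or 3, or WT replicate 1, 2 or 4. Without FLT3 ITD replicate 2 or Ptprc KO replicate 4 there were 5. Again, a count that has no share of all genes beside it cannot be read as particular to the 50. The 3 comparisons that use FLT3 ITD Ptprc KO cultures and the interaction share those 4 libraries, so their signs are not independent.

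**Figure D4:**
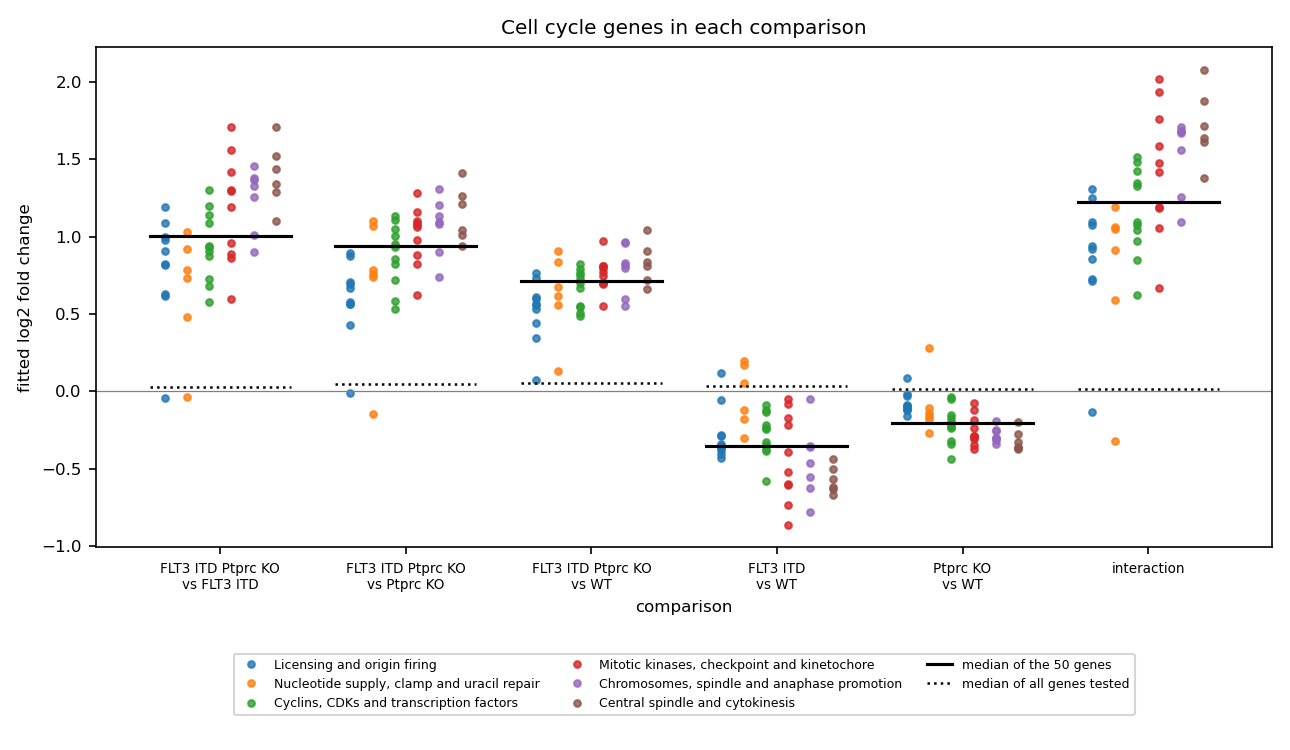
Fitted log2 fold change of each of the 50 genes (points, coloured by role) in the 5 comparisons and the interaction; solid lines are the median of the 50 and dotted lines the median of all genes tested. The medians are 1.00, 0.94 and 0.71 where FLT3 ITD Ptprc KO is the first group, and -0.35 and -0.21 for FLT3 ITD and Ptprc KO against WT.

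DESeq2 and limma on log2(TPM + 1) also called 0 of the 50 in every comparison and the interaction. Over all genes, in either direction, DESeq2 called 8.17% in FLT3 ITD Ptprc KO against FLT3 ITD, 2.76% against Ptprc KO, 0.971% against WT and 1.37% in the interaction, with 0.498% in FLT3 ITD and 0.0913% in Ptprc KO against WT. Its lowest adjusted p among the 50 was 0.0563, against FLT3 ITD. Limma on log2(TPM + 1) called 0.0183% of all genes against FLT3 ITD, 0.137% against Ptprc KO, 0.0732% against WT and 0% in the interaction, with 0.0366% in FLT3 ITD and 0.0183% in Ptprc KO against WT. Voom of limma with quality weights, which gives each library a weight by its spread, called 47 of the 50 higher in FLT3 ITD Ptprc KO against FLT3 ITD (32.1% of all genes), 48 against Ptprc KO (30.7%), 28 against WT (17.4%) and 48 in the interaction (32%), 1 lower in Ptprc KO against WT (1.69%) and 0 in FLT3 ITD against WT. The weights were 1.15 and 1.44 for FLT3 ITD Ptprc KO replicates 1 and 4 and 0.27 and 0.24 for replicates 2 and 3. FLT3 ITD replicates 1 and 3, the close pair, had 8.47 and 9.74, against 0.12 and 0.15 for replicates 2 and 4. When the close pair was summed into 1 library, an alternative added after the data were seen, voom called 0 of the 50 against FLT3 ITD (0% of all genes), 48 against Ptprc KO (29.9%), 18 against WT (15.4%) and 11 in the interaction (2.31%).

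**Figure D5:**
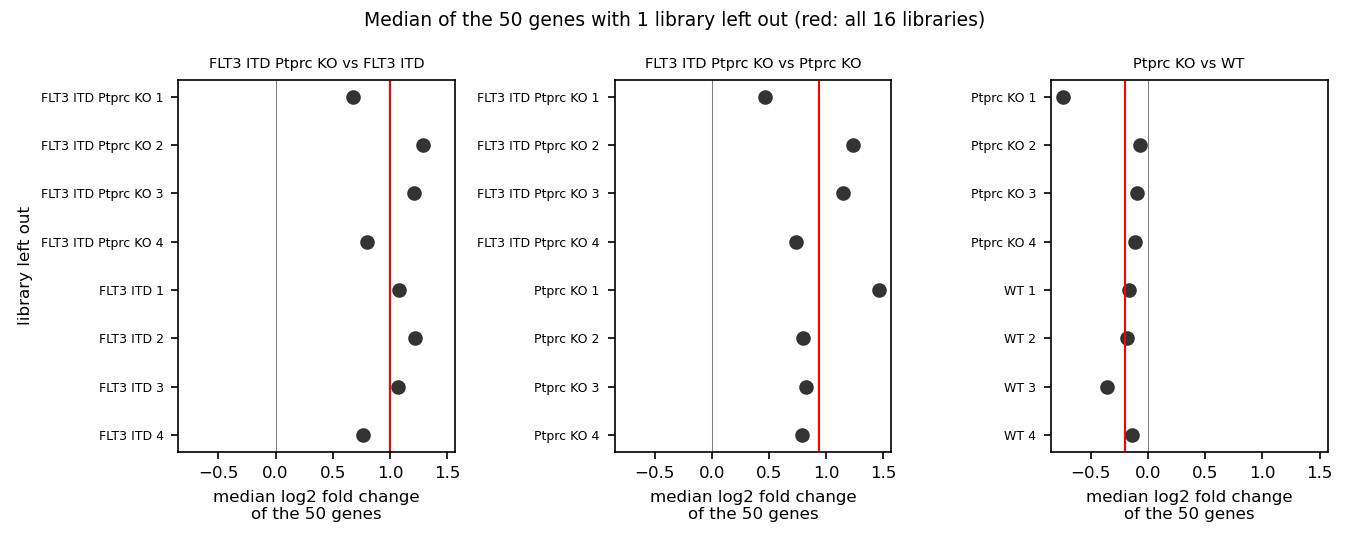
Median log2 fold change of the 50 genes (horizontal axis) when each culture named on the vertical axis is left out, in 3 comparisons; the red line is the median with all 16 cultures. For FLT3 ITD Ptprc KO against FLT3 ITD it runs between 0.68 without FLT3 ITD Ptprc KO replicate 1 and 1.29 without replicate 2, and for Ptprc KO against WT it reaches -0.74 without Ptprc KO replicate 1.

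Other genes of the pathway were counted from 4 further lists. In FLT3 ITD Ptprc KO against FLT3 ITD cultures, 42 of 43 other replication genes were positive with a median of 0.79. So were 49 of 50 other mitosis genes, with a median of 1.19. In each list 22 genes were higher at an unadjusted p under 0.05 in edgeR, against 11.9% of all genes. The mitosis list had medians of 1.05 against Ptprc KO, 0.77 against WT, -0.45 in FLT3 ITD against WT and -0.27 in Ptprc KO against WT. In edgeR 0 genes of these lists, and 0 of 24 G1 control and 17 checkpoint and exit genes, passed the adjusted test in any comparison. The G1 control list had a median of 0.47 against FLT3 ITD and 0.46 against Ptprc KO cultures.

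Within G1 control, Ccnd3, cyclin D3, a partner of Cdk4 and Cdk6, had 59.7, 47.4, 32.9 and 44.0 CPM in FLT3 ITD Ptprc KO and 23.2, 27.1, 25.1 and 35.1 CPM in FLT3 ITD cultures. It had 29.2, 16.6, 17.0 and 23.2 CPM in Ptprc KO and 24.9, 25.6, 22.1 and 38.3 CPM in WT cultures. Against Ptprc KO the ranges did not overlap, with every FLT3 ITD Ptprc KO culture higher, as for 3.48% of all genes. Its log2 fold change there was 1.1 (SE 0.24, adjusted p = 0.074 in edgeR), and DESeq2 called it (adjusted p = 0.00238). Ccnd1, cyclin D1, had 704, 586, 201 and 525 CPM in FLT3 ITD Ptprc KO and 116, 76.7, 116 and 493 CPM in FLT3 ITD cultures. It had 208, 93.7, 76.7 and 383 CPM in Ptprc KO and 117, 145, 304 and 172 CPM in WT cultures. Like Pcna, Ccnd1 was highest of its group in FLT3 ITD replicate 4, Ptprc KO replicate 4 and WT replicate 3. Ptprc KO replicates 2 and 3, whose mitosis genes were also low, had the lowest Ccnd1 and Pcna of their group. Fitted on the log2 scale, the difference was 1.40 (SE 0.63, adjusted p = 0.278 in edgeR) against Ptprc KO and 1.45 (SE 0.63, adjusted p = 0.601 in edgeR) against WT.

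Some of the CDK inhibitors are given here, not all in the same groups. Cdkn1b, Cdkn2a, Cdkn2b and Cdkn2c were also measured and are not given, so nothing is said of the inhibitors as a family. Cdkn1a, p21, an inhibitor that p53 induces, had 208, 166, 147 and 207 CPM in FLT3 ITD Ptprc KO and 70.0, 56.1, 66.7 and 204 CPM in FLT3 ITD cultures. It had 107, 70.8, 66.8 and 135 CPM in Ptprc KO and 120, 109, 112 and 104 CPM in WT cultures. Every FLT3 ITD Ptprc KO culture was thus above every Ptprc KO and WT culture. The share of all genes that separated this way was 3.48% against Ptprc KO and 2.94% against WT. Against Ptprc KO the fitted log2 value was 0.94 (SE 0.35, adjusted p = 0.251 in edgeR). Cdkn1c, p57, had 67.1 CPM in FLT3 ITD replicate 4 and 5.89 to 6.71 CPM in the other FLT3 ITD cultures, against 9.27 to 16.8 CPM in WT cultures. Cdkn2d, p19, an inhibitor of Cdk4 and Cdk6, had 37.6, 10.3, 13.8 and 20.7 CPM in FLT3 ITD Ptprc KO and 12.8, 7.53, 6.80 and 6.57 CPM in Ptprc KO cultures, which gave 1.29 as log2 fold change (SE 0.40, adjusted p = 0.197 in edgeR). Rbl1, the retinoblastoma relative p107, was singled out after its values were seen because it had the lowest p of the list against FLT3 ITD. It had 117, 49.0, 44.7 and 94.9 CPM in FLT3 ITD Ptprc KO and 35.3, 22.6, 36.7 and 24.4 CPM in FLT3 ITD cultures, which gave 1.36 as log2 fold change (SE 0.34, adjusted p = 0.105 in edgeR and 0.00938 in DESeq2).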

How the data were processed

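RNA was poly(A)-selected from 500 ng of total RNA with a directional kit and adaptors that carry molecular identifiers, per the labels' protocols. The submitters' processing notes name the aligner STAR 2.7.6a, the counter featureCounts 2.0.3, and also UMI-tools 1.1.1, cutadapt 4.2 and bcl2fastq 2.20.0.422, with build GRCm38.p6. The authors deposited read counts per gene, with gene lengths, and TPM values (scaled for gene length and library size) for the 16 libraries. No source used here states how strand was treated in counting, and 12 of the 50 genes overlap a gene on the other strand.

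Counts were fitted over all 16 libraries in edgeR 4.0.16 (R 4.3.3), by genotype, with filterByExpr, TMM scaling, a robust quasi-likelihood test and Benjamini-Hochberg adjustment at 0.05 over the 12093 genes tested. The common dispersion was 0.137 with 12 residual degrees of freedom. Standard errors were derived from the fold change and its F value. CPM used TMM-scaled totals, and log2 CPM a prior count of 2. Alternatives were RLE scaling, other filters, fits restricted to the compared groups, a replicate block, voom and limma 3.58.1, DESeq2 1.42.0, summing FLT3 ITD replicates 1 and 3, and leaving out each library. The fit was tested on simulated counts with a lower dispersion than these data and no divergent cultures. That test therefore does not show its power here.

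The 50 genes and all lists were chosen with earlier results of these data known. Values by culture are given for 22 genes picked as representatives of their roles. Also named are the highest, lowest and lowest-p gene of each comparison, some of the D cyclins and CDK inhibitors, and genes said to be named after their values were seen. Promoters are from RefSeq. The design text speaks of 24 samples, while its groups sum to 16, the number analysed here.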

Additional observations from a re-analysis of the deposited data

Results flagged for a closer look

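A culture stood apart from the other 3 of its genotype by Dixon's test for 4 samples at its 95% critical value in 21 of 88 groups tested (22 genes in 4 genotypes). Chance gives about 1 in 20 groups, and the genes are not independent, since most of these results come from the same 2 cultures.

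Ptprc KO replicate 1 was far above the other Ptprc KO cultures for 15 genes. For the chromosome and spindle genes it had 477 CPM of Mki67, 436 CPM of Top2a, 102 CPM of Kif11 and 89.2 CPM of Cdc20. For the cyclins and Cdk1 it had 97.9 CPM of Cdk1, 151 CPM of Ccna2, 86.6 CPM of Ccnb1 and 17.7 CPM of Ccne1. For the mitotic kinases and kinetochore genes it had 67.5 CPM of Plk1, 51.8 CPM of Aurkb, 109 CPM of Bub1, 107 CPM of Cenpe and 82.6 CPM of Cenpf. For cytokinesis it had 104 CPM of Prc1 and 114 CPM of Anln.

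FLT3 ITD replicate 4 was far below the other FLT3 ITD cultures for 5 genes, with 12.7 CPM of Ccna2, 5.87 CPM of Ccnb1, 4.50 CPM of Plk1, 4.66 CPM of Aurkb and 44.0 CPM of Mcm5. WT replicate 3 was far below the other WT cultures for Bub1, with 32.0 CPM.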

How the results depend on the processing

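Of 216 alternative values of the counts and medians over the 50 genes, 207 stayed within their tolerance and 9, all counts, moved. The tolerance is 1.5 times for a count and, for a median, 0.785, the pooled SD between libraries of the mean over the 50 genes. Medians within it still moved by over 1.5 times. The tolerance is larger in size than the main medians of all 3 comparisons with WT, so staying within it says little about those. In FLT3 ITD against WT the median was -0.35, and -0.19 with voom, -0.75 with limma on TPM, -0.78 with FLT3 ITD replicates 1 and 3 summed and replicate 2 left out, and -0.07 without FLT3 ITD replicate 4. In Ptprc KO against WT it was -0.21, and -0.75 with voom, -0.43 with limma on TPM, and -0.74 to -0.07 with 1 library left out. In FLT3 ITD Ptprc KO it was 0.71 against WT, with 0.41 by limma on TPM and 0.26 without its replicate 1, and against Ptprc KO it was 0.94, with 1.64 by voom. Voom on the summed pair gave 1.65 against FLT3 ITD, 1.62 against Ptprc KO, and -0.74 in both FLT3 ITD and Ptprc KO against WT. Voom with quality weights called 47 genes in FLT3 ITD Ptprc KO against FLT3 ITD, 48 against Ptprc KO, 28 against WT, 1 in Ptprc KO against WT and 48 in the interaction, where edgeR called 0. With FLT3 ITD replicates 1 and 3 also summed, it called 0, 48, 18, 0 and 11. Leaving out 1 library put Cdt1 against FLT3 ITD between -0.22 and 0.13, and Pcna in FLT3 ITD against WT between -0.14 and 0.40. It moved the edgeR count against FLT3 ITD between 0 and 2, the 2 calls coming without FLT3 ITD Ptprc KO replicate 3.

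Of 572 alternative values for single genes, 517 kept their direction and side of the threshold, 39 newly passed it and 16 changed sign, all of them near 0. Cdt1 against FLT3 ITD was 0.0553 with voom, 0.17 with limma on TPM, 0.13 without FLT3 ITD replicate 2, 0.01 without FLT3 ITD Ptprc KO replicate 2 and likewise without replicate 3, 0.24 with FLT3 ITD replicates 1 and 3 summed and replicate 2 left out, and 0.18 with voom on the summed pair. Cdt1 against WT was -0.0622 without FLT3 ITD Ptprc KO replicate 4. Ung against Ptprc KO was 0.0662 with voom and 0.0563 with voom on the summed pair. Its interaction was 0.0434 with limma on TPM, 0.0853 with the pair summed and replicate 2 left out, and 0.00859 with voom on the summed pair. Pcna in FLT3 ITD against WT was -0.17 with voom, -0.12 with limma on TPM and -0.14 without FLT3 ITD replicate 4. The cause was not tested.

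Same-numbered cultures were alike in some pairs and not in others, so whether the numbers pair the cultures stays unsettled. Correlations of same-numbered cultures' deviations ran from -0.633 to 0.851, 12 of 24 were over 0.1, and 8 of 16 cultures correlated best with their own number. With the replicate block 0 of the 50 genes were called, where it called 0.00827% of all genes against FLT3 ITD and 0.389% against Ptprc KO. The median against FLT3 ITD was 0.89 and that of Ptprc KO against WT was -0.37, while Ccnd3 against Ptprc KO passed (adjusted p = 0.0441 in edgeR).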
